A study of Mus musculus with 27 samples.

Results

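The 9 genes described here take part in writing, copying and removing DNA methylation: the DNA methyltransferase genes Dnmt1, Dnmt3a, Dnmt3b and Dnmt3l, the methylation reader Uhrf1, the Tet genes Tet1, Tet2 and Tet3, and the glycosylase gene Tdg. They were chosen by name, with earlier results of these data known. The expression tables list 8 of these 9 among 20156 genes, and all 8 passed the filter on low values. Tet1 is not a row of the tables used here, so only its chromatin is described. From mouse embryonic fibroblasts (MEFs) to induced pluripotent stem cells (iPSCs) transcripts of 6 of the 8 were called higher, beside 10.3% of all genes, and none was called lower, beside 15.5%. Dnmt3l and Dnmt3b changed most, and Tet3 was lower in both iPSC libraries than in both MEF libraries without passing the test. In the partially reprogrammed cells between them (pre-iPSCs), Uhrf1 and Tet2 had already risen, while Dnmt3l was at or near 0.

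Methylation of cytosine in CpG dinucleotides is written by the Dnmt3 enzymes and copied after each replication by Dnmt1, which UHRF1 brings to half-methylated CpGs. DNMT3L has no catalytic activity of its own and serves as a cofactor of DNMT3A and DNMT3B, and it is known from germ cells and early embryonic cells. TET enzymes oxidize methylated cytosine, and TDG cuts out some of the oxidized bases so that base excision repair can restore cytosine. Reprogramming to pluripotency is known to need rewriting of the methylation pattern of the somatic cell.

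MEFs were taken from E13.5 embryos that carried 1 copy each of an Oct4-GFP transgene and a Rosa26 allele, with CBA/CaJ and C57BL/6J strains on the side of the GFP allele and 129Sv/Jae on the other, and were used within 3 passages. Pre-iPSCs and iPSCs were induced by retrovirus from such fibroblasts with the Yamanaka factors and had 6 passages before RNA extraction, so the transgenic alleles are shared by all groups. They were grown on inactivated MEFs as feeder cells, in medium with serum and LIF. The study used 2 stable pre-iPSC clones and the iPSCs that correspond to them. The labels do not name the clone behind a library, so libraries cannot be paired by clone. RNA, H3, H3K4me3 and H3K27me3 were each read in 2 libraries per cell type, and H3K9me3 in 1. Libraries titled as repeats are replicate 2 here, and since nothing ties libraries of the same number to one culture, p-values measure only the spread between these libraries.

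The fibroblast markers summed to 4201 to 4431 FPKM (fragments per kilobase of transcript, scaled to the size of the library) in MEFs, 95.5 to 299 in pre-iPSCs and 206 to 239 in iPSCs, and all 8 were lower in both reprogrammed cell types. The 8 pluripotency markers summed to 0.0233 to 0.904 FPKM in MEFs, with Nanog, Zfp42, Fgf4 and Utf1 at 0, and to 2194 to 2325 in iPSCs. In pre-iPSCs they summed to 655 to 3538, mostly from Pou5f1 and Tdgf1, while Nanog, Zfp42 and Esrrb were at most 0.519 FPKM. All 3 epithelial markers were higher in iPSCs than in MEFs, and blood markers summed to at most 10.2 FPKM in any library. Endothelial markers summed to 0.152 to 1.97 FPKM in MEFs, 2.02 to 2.38 in pre-iPSCs and 12.8 to 15.9 in iPSCs, with Pecam1, which pluripotent cells also make, called higher in all 3 comparisons (log2 changes 1.32, 2.6 and 3.92), and their part in the members' changes was not tested. The called nucleosomes held 67362868 to 108211816 reads per H3 library and 12007350 to 15222040 per library of a mark. Replicate 1 of pre-iPSCs stood apart from the other H3 libraries, with a median of 143 reads within 1000 bp of a transcription start site (TSS) against 102 in replicate 1 of iPSCs, which was high as well, and 37 to 46 in the other 4 libraries. H3 results are therefore given with and without each of these libraries. MEFs were digested with another amount of MNase and for another time than the other cells, which cannot be told apart from cell type in the chromatin data. In these bulk samples, fewer cells of a type and less RNA per cell cannot be told apart.

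The starts of these genes differ widely in CpG content, the substrate of the enzymes they encode. The 5 windows of 250 bases before a start are shown here because chromatin at these starts is described below. They are the start of Dnmt3l where H3K4me3 rose most, the start of Dnmt3b, both Dnmt3a starts, and the start of Tet1, where H3K27me3 fell. A link of CpG content or motifs to the changes was not tested. They were read from mm9 at RefSeq starts, 5′ to 3′ along the gene, and the capitals mark every CpG.
Dnmt3l start 2, chr10:77512337-77512586, plus strand: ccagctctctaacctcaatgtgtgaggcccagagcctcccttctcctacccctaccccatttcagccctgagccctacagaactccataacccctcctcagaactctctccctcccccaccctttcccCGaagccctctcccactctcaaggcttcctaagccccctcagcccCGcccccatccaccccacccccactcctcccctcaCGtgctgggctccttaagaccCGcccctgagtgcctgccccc
Dnmt3b, chr2:153474940-153475189, plus strand: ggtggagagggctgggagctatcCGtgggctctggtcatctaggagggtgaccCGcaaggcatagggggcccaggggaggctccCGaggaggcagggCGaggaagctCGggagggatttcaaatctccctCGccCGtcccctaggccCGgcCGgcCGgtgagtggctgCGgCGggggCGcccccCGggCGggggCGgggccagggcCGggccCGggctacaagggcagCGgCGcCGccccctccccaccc
Dnmt3a start 1, chr12:3806730-3806979, plus strand: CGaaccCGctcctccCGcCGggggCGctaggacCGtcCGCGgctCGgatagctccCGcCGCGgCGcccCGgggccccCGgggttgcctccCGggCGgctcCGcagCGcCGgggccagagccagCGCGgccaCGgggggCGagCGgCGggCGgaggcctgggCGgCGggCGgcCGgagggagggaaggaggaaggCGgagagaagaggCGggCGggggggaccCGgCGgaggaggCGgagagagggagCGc
Dnmt3a start 2, chr12:3891494-3891743, plus strand: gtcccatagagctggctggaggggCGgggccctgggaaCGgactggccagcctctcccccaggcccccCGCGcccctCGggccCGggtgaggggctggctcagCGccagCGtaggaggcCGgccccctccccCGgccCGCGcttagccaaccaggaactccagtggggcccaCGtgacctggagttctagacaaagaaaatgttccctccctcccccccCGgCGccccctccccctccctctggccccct
Tet1, chr10:62350073-62350322, minus strand: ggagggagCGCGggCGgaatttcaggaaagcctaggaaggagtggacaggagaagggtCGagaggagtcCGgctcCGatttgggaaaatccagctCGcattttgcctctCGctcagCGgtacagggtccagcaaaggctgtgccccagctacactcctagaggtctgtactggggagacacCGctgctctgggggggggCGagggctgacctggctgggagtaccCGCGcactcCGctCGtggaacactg
By GENCODE exons the windows of Dnmt3l start 2, Dnmt3a start 1 and Tet1 hold no exon base, while that of Dnmt3b holds 4 and that of Dnmt3a start 2 holds 16 bases of its own gene. Over 20104 RefSeq promoters of this length the median was 11 CpGs, with quartiles of 3 and 20. The window of Dnmt3l start 2 holds 4 CpGs, and those of its start 1 and start 3 hold 5 and 3, all below the median (percentiles 26.6, 31.1 and 21.1). The window of Dnmt1 start 1, upstream of the listed start, holds the fewest, at 2 (percentile 14.4). At the other end the window of Tet2 holds 51 CpGs (percentile 99.9) and that of Dnmt3a start 1 holds 38 (percentile 97.3). Dnmt3a start 2, which lies 84764 bp downstream, holds 15, as does Tet1. Between these lie Dnmt1 at its listed start with 26, Dnmt3b with 21, Tdg with 19, Tet3 with 17 and Uhrf1 with 10. Of 2 motifs searched on both strands, GGGCGG stands in 45.8% of all promoters and 5 times in that of Dnmt3a start 1, 3 times in that of Dnmt3b and 2 times in that of Dnmt3l start 2. The other, TTTNNCGC, stands in 5.50% of all promoters, 2 times in that of Dnmt1 at its listed start, 1 time in that of Uhrf1 and in none of the other members' windows.

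Uhrf1, whose protein recruits DNMT1 to replicated DNA, rose at the first step of reprogramming. Its level was 32.5 FPKM in replicate 1 and 22.4 in replicate 2 of MEFs, then 95.9 and 52.6 for pre-iPSCs and 118 and 89.8 for iPSCs, in the order of replicates kept from here on. Both MEF libraries lay below all other libraries, and the pre-iPSC and iPSC libraries overlapped. In a limma fit on log2(FPKM + 1) over 12401 genes, with Benjamini-Hochberg adjustment where a call took a 2-fold difference and an adjusted p under 0.05, the log2 change was 1.37 (SE 0.35, adjusted p = 0.038) in pre-iPSCs against MEFs and 1.89 (SE 0.35, adjusted p = 0.0087) in iPSCs against MEFs. From pre-iPSCs to iPSCs it was 0.53 (SE 0.35, adjusted p = 0.46) and not called. The first call was lost in the fits without either library of pre-iPSCs or of iPSCs (adjusted p up to 0.47 over the alternatives), without the table as a replicate block (0.074) and with no filter on low values (0.11), and the second in the fit without replicate 2 of iPSCs (0.067).

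Dnmt1, the maintenance methyltransferase, was measured at 33.5 and 7.62 FPKM in MEFs, beside 71.5 and 31.4 for pre-iPSCs and 58.2 and 37.0 for iPSCs. The MEF libraries differed 4.40-fold from each other and one of them lay above replicate 2 of pre-iPSCs, so levels overlapped across cell types. Within each table both reprogrammed libraries were above the MEF library, by 2.13 and 4.13-fold in pre-iPSCs and 1.74 and 4.86-fold in iPSCs. The log2 change to iPSCs was 1.46 (SE 0.42, limma adjusted p = 0.039) and was called, while that to pre-iPSCs was 1.49 (SE 0.42, adjusted p = 0.0502) and was not. The iPSC call was kept in 6 of 13 alternatives and lost without the replicate block (0.15), with no filter and without any single library other than replicate 1 of MEFs (adjusted p 0.00091 to 0.23). Between pre-iPSCs and iPSCs the difference was -0.03 (adjusted p = 0.98).

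A list of 11 proliferation genes was set beside this pair, since both are known to be made in dividing cells. It summed to 288 to 541 FPKM in MEFs, 442 to 828 in pre-iPSCs and 796 to 1048 in iPSCs. In pre-iPSCs against MEFs 2 of the 11 were called higher, the replication helicase genes Mcm7 (log2 change 1.41) and Mcm5 (1.38), and in iPSCs against MEFs 5 were, with a median change of 1.07. Over all genes tested 7.39% and 10.3% were higher in these comparisons. Over all genes the gene with the pattern most like Uhrf1 was Mcm7, at a root mean square difference of 0.064 on the log2 scale over the 6 libraries after centring within each table, followed by Bard1 at 0.070. Nearest to Dnmt1 were Ints7 (0.063) and Rev1 (0.076). Bard1, Ints7 and Rev1 are not on the proliferation list. The part of cell division in the changes of Uhrf1 and Dnmt1 was not tested.

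**Figure D1:**
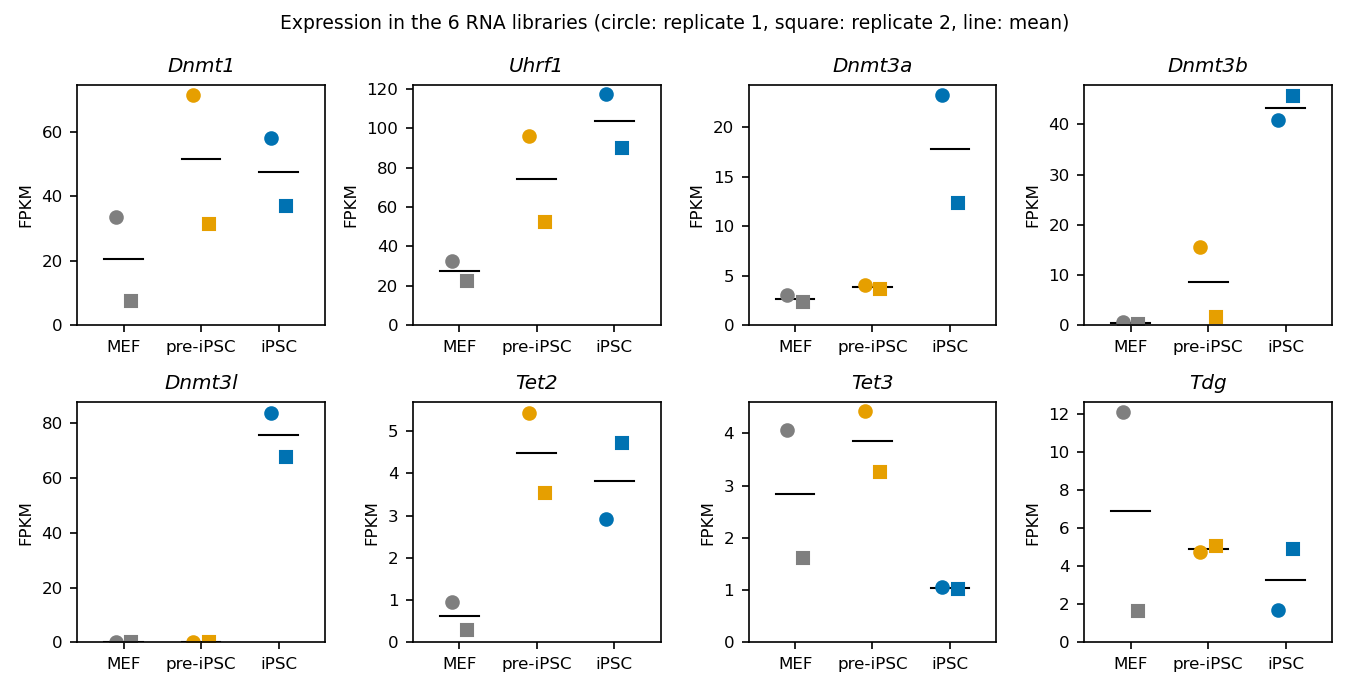
Level of each of the 8 listed genes in FPKM (vertical axis, linear, from 0) in the 6 RNA libraries. Points are single libraries of MEFs, pre-iPSCs and iPSCs, with circles for replicate 1, squares for replicate 2 and a line at the mean of both. Dnmt3l lies at or near 0 in 4 libraries and at 67.8 and 83.7 FPKM in iPSCs, and Tdg spans 1.64 to 12.1 FPKM in MEFs alone.

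The de novo group reached its highest levels in iPSCs. Dnmt3l, the cofactor, was listed at 0 in both MEF libraries, at 0.0511 and 0 FPKM in pre-iPSCs and at 83.7 and 67.8 FPKM in iPSCs. No library outside iPSCs came near the iPSC level, and since its lower groups are listed at 0 no fold is given. On the log2(FPKM + 1) scale it rose by 6.22 (SE 0.36, limma adjusted p = 0.00048) from pre-iPSCs to iPSCs and by 6.25 (SE 0.36, adjusted p = 0.00041) from MEFs to iPSCs, and both calls held in 13 of 13 alternatives. The study placed Dnmt3l in a cluster chosen on these libraries, so this rise is not independent evidence of that cluster. The genes most like it were Stra8 (0.10) and Dppa4 (0.11), which were also at or near 0 in MEFs and pre-iPSCs.

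Dnmt3b, a catalytic de novo enzyme, was low in MEFs, unequal in pre-iPSCs and high in iPSCs. Its libraries held 0.546 and 0.317 FPKM in MEFs, then 15.6 and 1.63 for pre-iPSCs and 40.9 and 45.7 for iPSCs. The groups do not overlap, but the pre-iPSC libraries differed 9.62-fold from each other. Within the tables iPSCs were 75 and 144-fold above MEFs, and the log2 change of 4.95 (SE 0.67, limma adjusted p = 0.0030) was called in 11 of 13 alternatives. From pre-iPSCs to iPSCs the change was 2.74 (SE 0.67, adjusted p = 0.048), called in 6 of 13 and lost without replicate 2 of pre-iPSCs or either iPSC library and without the table as a replicate block (limma adjusted p = 0.054). From MEFs to pre-iPSCs the level was 28.6 and 5.12-fold higher within the tables, and the log2 change of 2.21 (SE 0.67, limma adjusted p = 0.065) was not called, though it was in 4 of 13 alternatives. Between the pre-iPSC libraries all 3 epithelial markers were higher in replicate 1, as Dnmt3b was, for instance Epcam (34.1 and 6.48 FPKM) and Cdh1 (27 and 6.56), and so were all 8 fibroblast markers. Of the 8 pluripotency markers 3 were higher in replicate 1, among them Utf1 (23.2 and 1.67), and 5 in replicate 2, among them Pou5f1 (378 and 3184), which is also one of the delivered factors, Tdgf1 (228 and 333) and Dppa5a (1.70 and 5.01). Their part in the spread of Dnmt3b was not tested. Mycn (0.20) and Nodal (0.26) had the most similar patterns. Dnmt3b is one of the study's pluripotency markers, so its rise is not independent evidence for that list.

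Dnmt3a, the other catalytic de novo enzyme, stayed low in pre-iPSCs and rose after that. It was at 3.0 and 2.34 FPKM in MEFs, beside 4.09 and 3.69 for pre-iPSCs and 23.3 and 12.4 for iPSCs. Both iPSC libraries were above all others, by 7.76 and 5.28-fold over MEFs within the tables. The log2 change was 1.88 (SE 0.38, limma adjusted p = 0.026) from pre-iPSCs and 2.30 (SE 0.38, adjusted p = 0.0061) from MEFs. The first call was lost without any one of the 4 libraries it compares and the second without replicate 1 of iPSCs. Both were also lost with no filter on low values (limma adjusted p = 0.062 against MEFs). From MEFs to pre-iPSCs the change of 0.42 (adjusted p = 0.52) was not called, and it was called in none of the 13 alternatives. Necab3 (0.065) and Wdtc1 (0.099) were nearest in pattern.

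Tet2, an oxidizing enzyme, was low in MEFs at 0.946 and 0.282 FPKM and higher in pre-iPSCs at 5.44 and 3.54 and in iPSCs at 2.93 and 4.71. Every reprogrammed library was above both MEF libraries, and pre-iPSCs and iPSCs overlapped. Its log2 change was 1.78 (SE 0.41, limma adjusted p = 0.027) in pre-iPSCs against MEFs and 1.59 (SE 0.41, adjusted p = 0.029) in iPSCs against MEFs, and -0.19 (adjusted p = 0.84) between pre-iPSCs and iPSCs. The pre-iPSC call was lost without replicate 2 of MEFs or either pre-iPSC library. The iPSC call was lost without replicate 2 of MEFs or of iPSCs. Both were also lost with no filter on low values (limma adjusted p = 0.20 for pre-iPSCs). Hunk (0.045) and Kdm3a (0.10) were nearest in pattern.

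Tet3, known from the oocyte and from neurons, was at 4.07 and 1.62 FPKM in MEFs, then 4.43 and 3.26 for pre-iPSCs and 1.06 and 1.02 for iPSCs. Both iPSC libraries were below the other 4, by 4.20 and 3.19-fold against pre-iPSCs of the same table. With both tables in the fit the log2 change of -1.24 (SE 0.38, limma adjusted p = 0.0997) from pre-iPSCs and that of -0.84 (SE 0.38, adjusted p = 0.15) from MEFs were not called. The first was called lower in 2 of 13 alternatives, those without replicate 1 or replicate 2 of MEFs (adjusted p 0.027 to 0.51 over all 13).

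Tdg could not be ordered across cell types. Its MEF libraries were at 12.1 and 1.64 FPKM, a 7.39-fold difference, beside 4.73 and 5.06 for pre-iPSCs and 1.70 and 4.90 for iPSCs. No comparison was called, with log2 changes of 0.00, -0.56 and -0.56 (SE 0.74). Without replicate 2 of MEFs the change in iPSCs against MEFs was -2.02 and called (limma adjusted p = 0.0048), and without replicate 1 of MEFs it was 0.90.

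**Figure D2:**
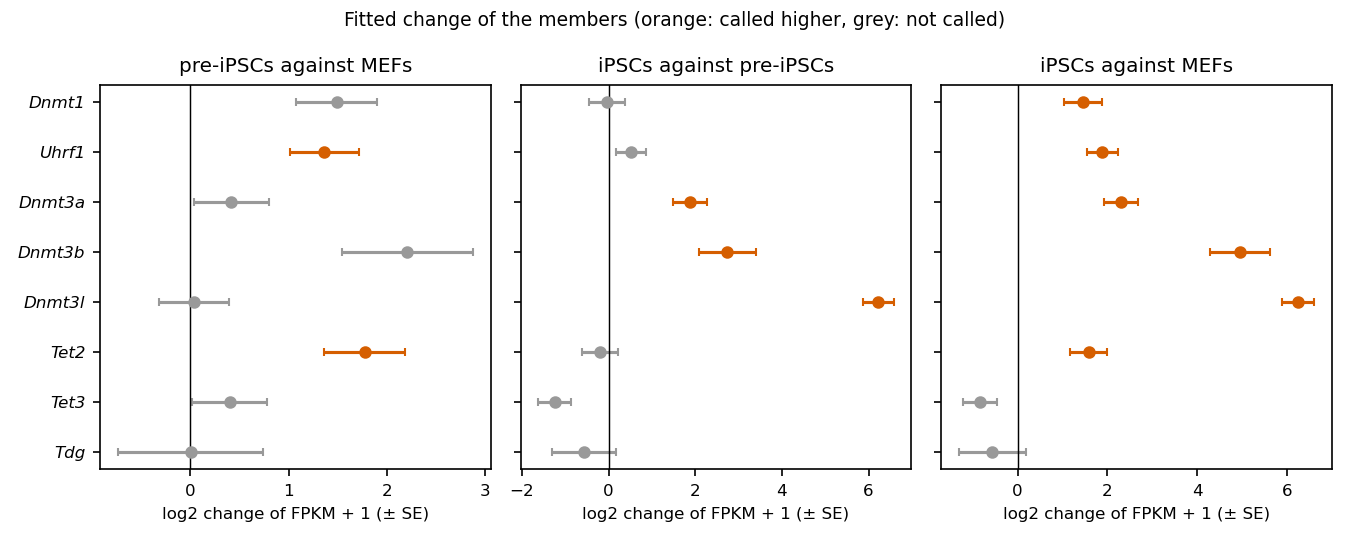
Fitted log2 change of FPKM + 1 (horizontal axis) with its standard error for the 8 listed genes in 3 comparisons. Orange points passed adjusted p below 0.05 and a 2-fold change, and grey points did not. The called genes are 2 from MEFs to pre-iPSCs, 3 from there to iPSCs and 6 over the whole way, all of them higher, and the horizontal scales differ between panels.

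Counted together, 2 of the 8 listed genes were called higher in pre-iPSCs against MEFs, where 7.39% of all genes were higher and 9% lower. For iPSCs against pre-iPSCs it was 3 of 8, beside 3.91% higher and 4.71% lower. For iPSCs against MEFs it was 6 of 8, beside 10.3% higher and 15.5% lower. By limma 0 of the 8 were called lower in any of the 3, and Tet3 from pre-iPSCs to iPSCs was the one that was lower at an unadjusted p below 0.05. The median log2 change of the 8 was 0.89, 0.25 and 1.74, and that of all genes tested was -0.04, -0.09 and -0.14. The comparisons share libraries.

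The mix of transcripts also differed between cell types. Of the summed FPKM of the catalytic enzymes Dnmt1, Dnmt3a and Dnmt3b, Dnmt1 made up 90.4% and 74.1% in MEFs, beside 78.4% and 85.5% for pre-iPSCs and 47.5% and 39.0% for iPSCs. Thus the iPSC libraries were below all others, with a mean of 43.2 ± 6.1% (SD, n = 2) against 82.0 ± 5.1% in pre-iPSCs. The share of Dnmt3b was 1.47% and 3.09% in MEFs, then 17.1% and 4.42% for pre-iPSCs and 33.4% and 48.0% for iPSCs, and the groups did not overlap. With quantile normalization they did, at 4.81% in replicate 2 of MEFs and 4.36% in replicate 2 of pre-iPSCs. Dnmt3a took 8.09% and 22.8%, 4.49% and 10.0%, and 19.0% and 13.0%, with MEFs overlapping both other cell types. Among Tet2 and Tet3 the share of Tet2 was 18.9% and 14.8% in MEFs, beside 55.1% and 52.1% for pre-iPSCs and 73.5% and 82.2% for iPSCs, so no libraries of different cell types overlapped. With 2 libraries against 2, the exact two-sided permutation test cannot go below p = 0.333, and it gave 0.333 for each of these comparisons of the Tet2 share and of the Dnmt3b share.

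**Figure D3:**
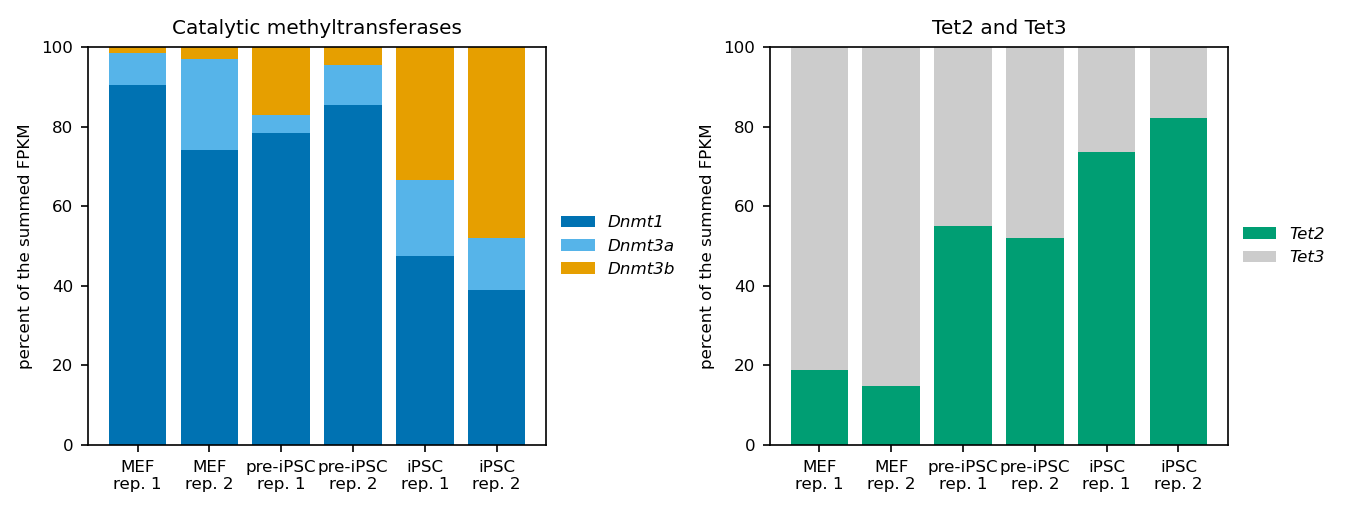
Percent of the summed FPKM (vertical axis, 0 to 100) taken by Dnmt1, Dnmt3a and Dnmt3b (left) and by Tet2 and Tet3 (right), with 1 bar per RNA library. Dnmt1 holds 74.1% or more in MEF and pre-iPSC libraries and 47.5% or less in iPSC libraries, and Tet2 passes Tet3 in every pre-iPSC and iPSC library.

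The other genes of the pathway were read by function, against the percentages above. Of 6 partners of maintenance methylation, Cdca7 and Hells, which encode 2 parts of one chromatin remodeler, were higher in iPSCs than in MEFs, by 2.65 and 2.17 on the log2 scale (limma adjusted p = 0.0037 and 0.0095). Hells rose between pre-iPSCs and iPSCs (2.22, from 15.4 and 8.68 to 53.6 and 62.1 FPKM), and Cdca7 already between MEFs and pre-iPSCs (1.38, adjusted p = 0.0496). Uhrf2, the paralog of Uhrf1, fell by 1.44 in pre-iPSCs against MEFs (18.3 and 9.95 to 4.20 and 4.5 FPKM), where Uhrf1 rose. The medians of the 6 were 0.47, 0.92 and 1.07 from MEFs to pre-iPSCs, from pre-iPSCs to iPSCs and from MEFs to iPSCs, the order used for the lists that follow.

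Among 10 readers of methylated CpG, 0 were called by limma in the first 2 comparisons (2 and 3 at an unadjusted p below 0.05), and 1 was higher and 3 were lower in iPSCs against MEFs. Mbd2 fell by 2.27, from 46.7 and 53.4 FPKM in MEFs through 23.3 and 24.1 for pre-iPSCs to 8.86 and 10.3 for iPSCs. Zbtb4 fell by 2.12 and Mbd1 by 1.22, and Mbd4, a thymine glycosylase as well as a reader, was higher by 1.56. The medians were -0.26, -0.55 and -0.82.

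Of 16 genes of active demethylation and base excision repair, 15 were tested, with 3 higher and 1 lower, 1 higher, and 4 higher and 1 lower. Gadd45g, a stress-response gene linked to demethylation, fell by 4.30 from MEFs (125 and 187 FPKM) to pre-iPSCs (8.77 and 5.24). Ung, the uracil glycosylase, rose by 2.91 to iPSCs, and Parp1, a sensor of strand breaks, by 2.6 to pre-iPSCs and 2.68 to iPSCs. Nthl1, a glycosylase for oxidized pyrimidines, rose by 1.58 to pre-iPSCs. The medians were 0.95, -0.00 and 0.56.

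The 3 guardians of methylation were all higher in iPSCs than in MEFs. Dppa3, which protects methylation in the zygote, was listed at 0 in MEFs and pre-iPSCs and at 11.3 and 41.2 FPKM in iPSCs, where it rose by 4.51. Zfp57, which keeps imprints, rose by 2.42 at the first step and Trim28, its corepressor, by 1.69 from MEFs to iPSCs. Their medians were 0.48, 1.20 and 2.05. Dppa3 stands in the same cluster of the study as Dnmt3l, chosen on these libraries. By limma 0 genes were called among the 5 tested genes of Tet cofactor supply (medians -0.33, -0.19 and -0.52) or the 3 of methyl donor supply (-0.48, 0.41 and 0.37), and over the 3 comparisons 1 methyl donor gene had an unadjusted p below 0.05, from MEFs to pre-iPSCs.

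At the starts, chromatin was read as the reads of nucleosome calls whose dyad lies within 1000 bp of a TSS. The 8 listed starts were tested with edgeR's quasi-likelihood test over all TSSs, with a call at a Benjamini-Hochberg adjusted p below 0.05. The 5 further RefSeq starts, among them that of Tet1, were added after the data had been seen. H3 reads, which count nucleosomes whatever their marks, gave 0 calls among the 8 members and among all 19576 starts in each of the 3 comparisons (0% higher and 0% lower), with 377, 105 and 298 starts at an unadjusted p below 0.05 and none of the 8 among them. DESeq2 also called 0 of the 8. Without replicate 1 of pre-iPSCs edgeR again called 0 starts in all, and without replicate 1 of iPSCs 0 of the 8 members. Without replicate 2 of pre-iPSCs edgeR called Dnmt3a, Tet3 and Dnmt3l in pre-iPSCs against MEFs, of 4946 starts in all, and Dnmt3l in iPSCs against pre-iPSCs, of 2087 in all. At the listed start of Dnmt3l the H3 reads were 73 and 104 in MEFs, then 655 and 45 for pre-iPSCs and 257 and 64 for iPSCs, so the pre-iPSC libraries bracketed all others.

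H3K4me3, the mark of active starts, rose at Dnmt3l alone among the listed members. Its reads at start 1 (chr10:77505032) were 11 and 14 in MEFs, beside 18 and 17 for pre-iPSCs and 30 and 30 for iPSCs. The groups do not overlap, with a log2 change of 1.56 in iPSCs against MEFs (edgeR adjusted p = 0.0036). At start 2, shown above with its 4 CpGs, the reads were 9 and 18, 21 and 18, and 31 and 37, and the log2 change was 1.63 (adjusted p = 0.0023, 9.92% of starts higher in the fit with the further starts). Start 3, at 13 and 11, 22 and 17, and 20 and 17 reads, was not called. The calls at starts 1 and 2 were lost in a window of 500 bp, with DESeq2 (adjusted p = 0.14 and 0.11) and without replicate 1 of MEFs. For scale, a window of this size at the genome's average holds 8.84 to 9.68 H3K4me3 reads and the median start 25 to 36. The window of start 1 also holds exon bases of Aire, so reads of the neighbor cannot be set apart.

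The background of that count was 3.16% of 17644 starts higher and 0.759% lower in pre-iPSCs against MEFs, 0.017% and 0.0113% from pre-iPSCs to iPSCs, and 9.92% and 3.97% for iPSCs against MEFs, where 1 of 8 members was called. Among 2793 starts with a mean of 15 to 25 reads, a band chosen after the data were seen to hold the 20 of Dnmt3l, 28.9% were called higher and 1.65% lower, with a median change of 0.65. A rise at a start with this few reads was thus more common than over all starts.

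The other starts were not called for H3K4me3. The CpG-rich start of Tet2 held 102 and 54 reads in MEFs, then 50 and 50 for pre-iPSCs and 51 and 35 for iPSCs, highest in MEFs, where its transcript was lowest, and with the MEF libraries far apart. Dnmt3b held 54 and 25, 39 and 25, and 42 and 30, so its start carried the mark in MEFs, where its transcript was below 1 FPKM. At Dnmt3a the reads were 20 and 20, 16 and 22, and 14 and 24 at start 1 and 22 and 29, 19 and 10, and 37 and 24 at start 2. Tet1 held 42 and 36, 62 and 42, and 57 and 44 (log2 change to pre-iPSCs 0.74, adjusted p = 0.073). The listed starts of Dnmt1, Uhrf1, Tet3 and Tdg held 14 to 61 reads.

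**Figure D4:**
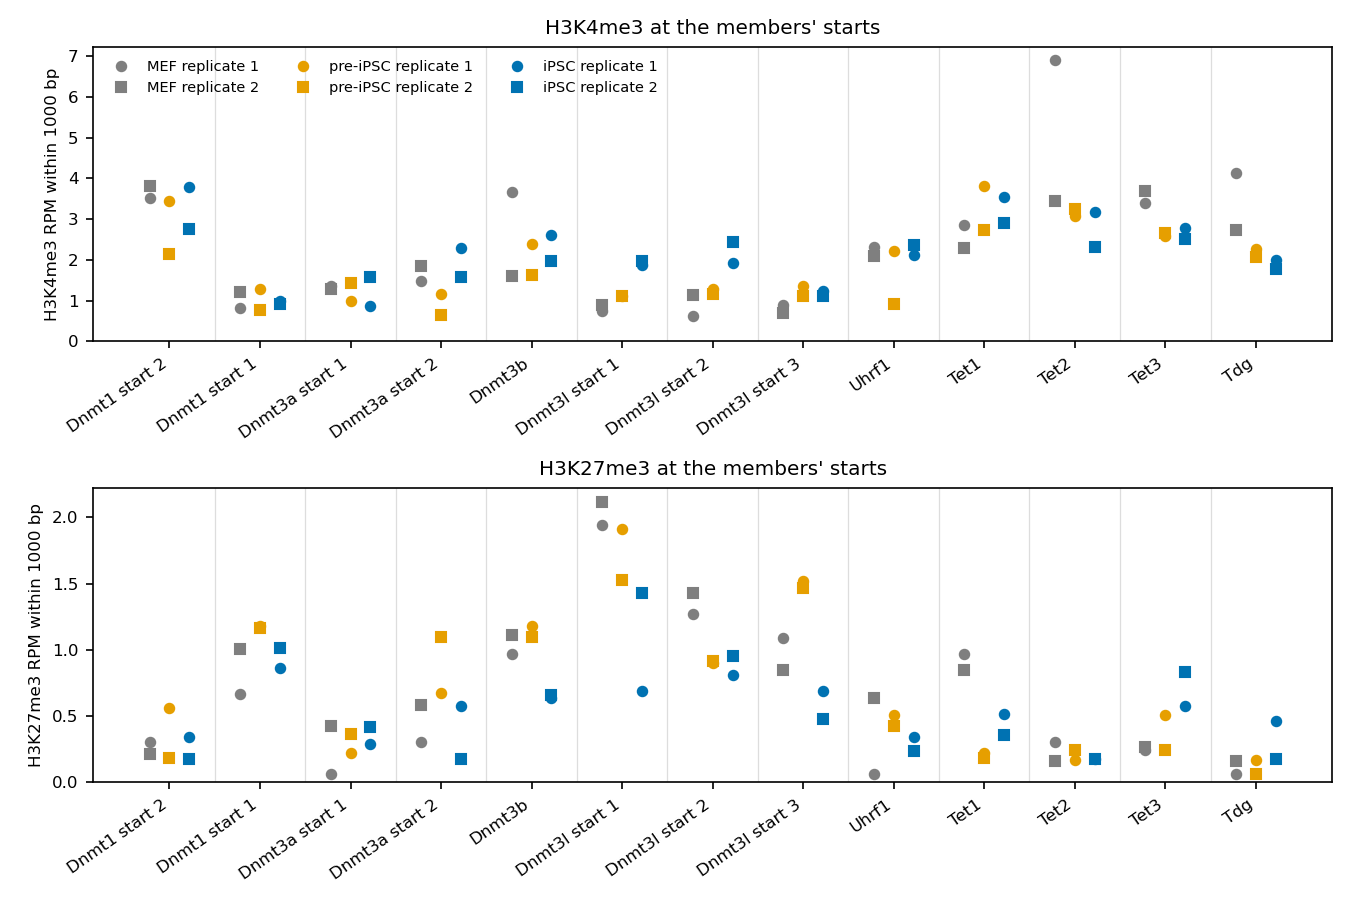
H3K4me3 (top) and H3K27me3 (bottom) within 1000 bp of each start, in reads scaled to the unique reads of the library (RPM, vertical axis, from 0). Points are single libraries, colored by cell type, with circles for replicate 1 and squares for replicate 2. Dnmt3l start 1 shows H3K4me3 highest and H3K27me3 lowest in iPSCs, and Tet1 shows H3K27me3 lowest in pre-iPSCs.

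H3K27me3, the Polycomb mark of repressed genes, was tested at the listed starts of Dnmt3l and Dnmt3b only, since the other 6 held too few reads for the filter. At start 1 of Dnmt3l it held 32 and 40 reads in MEFs, beside 34 and 25 for pre-iPSCs and 12 and 24 for iPSCs. The iPSC libraries were the lowest, and the log2 change against MEFs was -1.01 (edgeR adjusted p = 0.031), beside 4.14% of 10185 starts lower and 7.28% higher. That call was kept in 7 of 13 alternatives, being lost without either MEF library, without replicate 1 of iPSCs, without composition normalization (adjusted p = 0.053), at 500 bp and with DESeq2 (0.29). Start 2 held 21 and 27, 16 and 15, and 14 and 16 reads (log2 change in iPSCs against MEFs -0.69, adjusted p = 0.20), and start 3 held 18 and 16, 27 and 24, and 12 and 8 (-0.78, adjusted p = 0.23). Neither was called, and from MEFs to pre-iPSCs their changes of -0.59 and 0.61 had opposite signs. From pre-iPSCs to iPSCs the log2 change of start 3 was -1.39 (edgeR adjusted p = 0.058), also not called, and that of start 2 was -0.10. Dnmt3b held 16 and 21, 21 and 18, and 11 and 11 reads and was not called (-0.76, adjusted p = 0.22). Neither Dnmt3b nor start 1 of Dnmt3l was called in pre-iPSCs against MEFs (5.01% of starts higher, 3.26% lower) or in iPSCs against pre-iPSCs (0.668% and 0.137%).

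At the start of Tet1 (chr10:62350072), whose 15 CpGs are marked above, H3K27me3 held 16 and 16 reads in MEFs, then 4 and 3 for pre-iPSCs and 9 and 6 for iPSCs. Both MEF libraries were above the rest, and pre-iPSCs were the lowest. For scale, a window of this size at the genome's average holds 9.74 to 11.2 H3K27me3 reads and the median start 6 to 9. The log2 change of -2.12 in pre-iPSCs against MEFs was called in the fit with the further starts (edgeR adjusted p = 0.0071, 3.27% of starts lower). It was lost without replicate 1 of MEFs or replicate 2 of pre-iPSCs, and DESeq2 gave no adjusted p for it. The change of -1.10 to iPSCs was not called (adjusted p = 0.11).

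Because few reads lie within 1000 bp of a start, both marks were also summed over the gene and 5 kb before its start, for all genes in 1 fit. This was chosen after the data had been seen. Tet3 gave the largest H3K27me3 change of the 9 members. Over its region (chr6:83312368-83396672) the mark, in reads scaled to the unique reads of each library (RPM), stood at 0.156 and 0.181 RPM per kb in MEFs, beside 0.435 and 0.360 for pre-iPSCs and 0.606 and 0.607 for iPSCs, from 217 to 887 reads. The groups follow each other without overlap, and iPSCs, with the most H3K27me3, had the lowest FPKM of Tet3. Pre-iPSCs had more of the mark than MEFs, but their Tet3 level was not lower, at 4.43 and 3.26 FPKM beside 4.07 and 1.62. The log2 change of H3K27me3 was 1.06 (edgeR adjusted p = 6.1e-05) to pre-iPSCs and 1.65 (5.5e-07) to iPSCs against MEFs. Both were kept in 11 of 11 alternatives. From pre-iPSCs to iPSCs it was 0.59 (0.048), and that call was lost without any one library, with the replicate block (0.094) and without composition normalization (0.17). In 17 of 17 bins of 5 kb both libraries of pre-iPSCs and both of iPSCs were above both of MEFs, so the difference was spread along the gene. H3K9me3 over the same region was 0.265 RPM per kb in MEFs, 0.435 for pre-iPSCs and 0.503 for iPSCs, and H3 was 0.352 and 0.354, 1.12 and 0.398, and 0.670 and 0.447. Both were also lowest in MEFs, and their part in the H3K27me3 change was not tested.

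Dnmt3l and Tet1 went the other way. The Dnmt3l region held H3K27me3 at 0.559 and 0.666 RPM per kb in MEFs, then 0.646 and 0.578 for pre-iPSCs and 0.328 and 0.324 for iPSCs. Its log2 change was -0.93 from pre-iPSCs (edgeR adjusted p = 0.0088, lost without replicate 2 of pre-iPSCs and without composition normalization) and -1.11 from MEFs (7.3e-05, kept in 11 of 11 alternatives). In 5 of 6 bins both iPSC libraries were below both MEF libraries. H3 over that region was 0.347 and 0.402 in MEFs, then 1.36 and 0.373 for pre-iPSCs and 0.584 and 0.374 for iPSCs, and H3K9me3 was 0.441, 0.486 and 0.347. Replicate 1 of pre-iPSCs was thus far above the other H3 libraries and H3K9me3 was lowest in iPSCs, and their part in the H3K27me3 change was not tested. The Tet1 region (chr10:62267318-62355072) held 0.307 and 0.428, 0.296 and 0.215, and 0.244 and 0.136. Both of its MEF levels lay below those of Dnmt3l. A genome average in RPM per kb was not computed for the regions, so how far these levels lie from background is not given. Its change was -0.70 to pre-iPSCs (adjusted p = 0.015, kept in 7 of 11) and -1.15 to iPSCs (0.00031, kept in 11 of 11), and both iPSC libraries were below both MEF libraries in 12 of 18 bins. Dnmt3a was higher in pre-iPSCs than in MEFs by 0.54 (adjusted p = 0.016, kept in 9 of 11). In pre-iPSCs against MEFs 2 of 9 regions were thus higher and 1 lower (all genes 11.4% and 10.9%), from pre-iPSCs to iPSCs 1 and 1 (0.883% and 0.265%), and from MEFs to iPSCs 1 and 2 (14.8% and 12.2%).

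**Figure D5:**
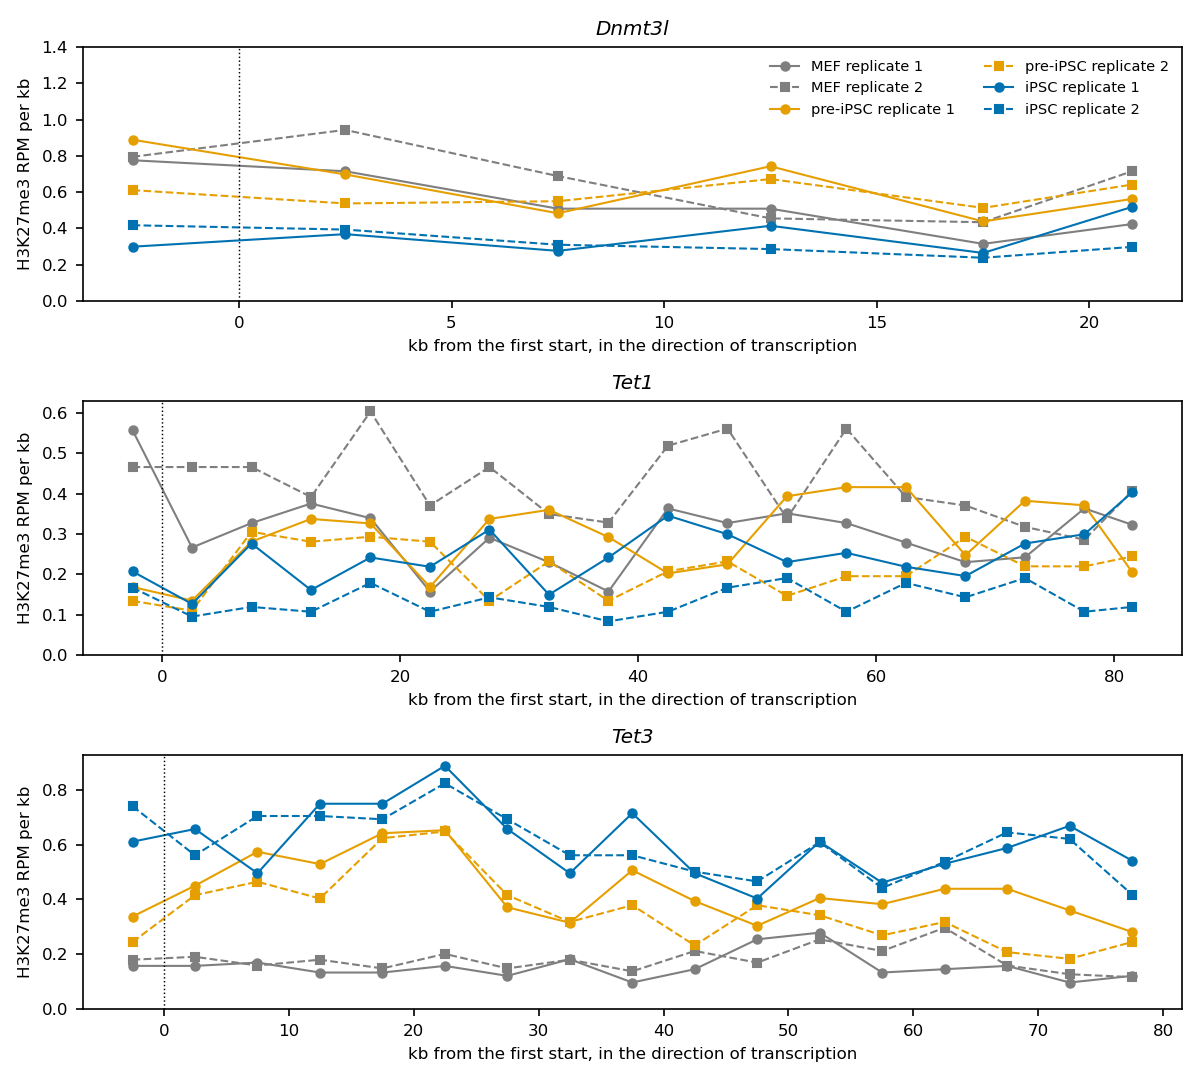
H3K27me3 along Dnmt3l, Tet1 and Tet3 in RPM per kb (vertical axis, from 0), in bins of 5 kb by distance from the first start (horizontal axis, the start at the dotted line). Each line is 1 library. Along Tet3 every iPSC value, 0.403 or more, is above every MEF value, 0.297 or less, while along Dnmt3l the iPSC libraries are below both MEF libraries in 5 of 6 bins.

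H3K4me3 over the same regions was higher in iPSCs than in MEFs in 6 of the 9 members, where 16.6% of all genes were higher and 14.3% lower. The log2 changes were 0.76 for Tet1, 0.74 for Dnmt3l, 0.67 for Dnmt1, 0.62 for Dnmt3b, 0.60 for Dnmt3a and 0.52 for Uhrf1, with edgeR adjusted p from 0.00069 to 0.029. The calls of Tet1, Dnmt1, Dnmt3a and Dnmt3b were kept in 11 of 11 alternatives. That of Dnmt3l was lost without replicate 1 of MEFs, and that of Uhrf1 without replicate 2 of MEFs, without replicate 1 of iPSCs and with DESeq2. In pre-iPSCs against MEFs Tet2 (0.59, adjusted p = 0.017) and Tet1 (0.43, 0.030) were higher, beside 8.78% of genes higher and 6.81% lower. Tet2 was at 0.395 and 0.366 RPM per kb in MEFs and 0.464 and 0.653 in pre-iPSCs. Both calls were lost without either MEF library or replicate 2 of pre-iPSCs, and that of Tet1 also without replicate 1 of pre-iPSCs and without composition normalization. No region was called in iPSCs against pre-iPSCs, among the members or among all genes (edgeR, 0% and 0%, with 2424 genes at an unadjusted p below 0.05 and 4 called by DESeq2). Without replicate 2 of iPSCs edgeR called 523 genes in this comparison, with 0 of the 9 members among them. The 5 genes with both a called region and a called transcript rise to iPSCs were Dnmt1, Dnmt3a, Dnmt3b, Dnmt3l and Uhrf1. At the listed starts only Dnmt3l among them was called for H3K4me3, and the share of all genes with both calls was not counted. Tet2, whose transcript also rose, had a region change of 0.32 (adjusted p = 0.12), and Tet1 has no transcript value here.

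H3K9me3, a mark of constitutive heterochromatin, had 1 library per cell type, so no difference has a replicate check and no test was made. Within 1000 bp the 13 starts held 1 to 21 reads each. The listed start of Dnmt3l held the most of the 8 listed, at 20 reads in MEFs, beside 17 for pre-iPSCs and 14 for iPSCs. For 8 of 8 listed starts the exact 95% Poisson intervals of the 3 scaled levels shared a value, so no difference was detectable at this depth at the starts. Over the gene regions the reads were more, and the 3 intervals shared a value in 3 of 9 members and none in 6. Such intervals narrow as reads rise, and neither share was counted over all starts or all gene regions. Tet3 stood at 0.265 RPM per kb in MEFs (interval 0.238 to 0.295), 0.435 for pre-iPSCs (0.401 to 0.472) and 0.503 for iPSCs (0.464 to 0.543). Dnmt1 stood at 0.307 in MEFs (0.269 to 0.349) and 0.463 for pre-iPSCs (0.417 to 0.512), and Dnmt3a at 0.294 (0.268 to 0.320) and 0.423 (0.393 to 0.454). Uhrf1 and Tet2 were also highest in pre-iPSCs, and Dnmt3l was lowest in iPSCs. Those intervals cover counting error only and compare single libraries, not the cell types.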

How the data were processed

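RNA was read in 6 libraries and chromatin in 21, made by digestion with MNase and immunoprecipitation of H3, H3K4me3, H3K27me3 or H3K9me3. The authors mapped reads to mm9 with Bowtie 1.0.1 and TopHat2 2.0.4 and deposited FPKM per gene from Cufflinks 2.0.2, in 1 table per replicate (tools from the submitters' processing notes). For chromatin the authors deposited nucleosome calls with a position and a read count each, made from uniquely mapped reads. Members and gene lists were chosen with earlier results of these data known.

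Expression was compared with limma 3.58.1 (R 4.3.3) on log2(FPKM + 1), with cell type and table as terms, over the 12401 genes whose mean FPKM was 0.5 or more. A fold change on that scale understates the change of low genes. Table was kept as the block because the values come in 2 separately made tables. Reads of calls within 1000 bp of a TSS were compared with edgeR 4.0.16 (quasi-likelihood, TMM composition normalization), with DESeq2 1.42.0 as an alternative. Calls needed an adjusted p below 0.05, and for expression also a 2-fold change. RPM were scaled to the unique reads that the study gives for each library. The gene region fit, the further starts and the band of low starts were added after the data had been seen. The expression fit and the fits at starts were run on simulated data for iPSCs against MEFs. The gene region fits and the other comparisons were not. Named partner genes were those of a list called in at least 1 comparison, at most 4 a list and the largest changes first. The authors also deposited a fuzziness score for each call, the spread of its read positions, which was not used.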

Additional observations from a re-analysis of the deposited data

How the results depend on the processing

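Small replicate numbers limit every call: with 2 libraries per cell type, leaving out 1 moved the number of the 8 listed genes called between 0 and 4 from MEFs to pre-iPSCs, 1 and 4 from there to iPSCs, and 2 and 6 from MEFs to iPSCs. For the starts these ranges were 0 to 3, 0 to 1 and 0 to 0 (H3), 0 to 0, 0 to 0 and 0 to 2 (H3K4me3), and 0 to 0, 0 to 0 and 0 to 1 (H3K27me3). In pre-iPSCs against MEFs a pseudocount of 0.1 gave 4 genes, no filter on low values 0 and no replicate block 1, and no filter gave 1 and 2 in the other expression comparisons. Without the block there were 2 from pre-iPSCs to iPSCs and 5 from MEFs to iPSCs. With the replicate block the counts at starts were 0, 0 and 0 (H3), 0, 0 and 1 (H3K4me3) and 0, 0 and 1 (H3K27me3), as without it. The call lost without the block was that of Uhrf1 from MEFs to pre-iPSCs, of Dnmt3b from there to iPSCs and of Dnmt1 from MEFs to iPSCs. Over the gene regions the block ended the call of Tet3 H3K27me3 from pre-iPSCs to iPSCs (adjusted p = 0.094) and no other. Nothing in the labels pairs the libraries. Over all genes, the calls of 2032, 1069 and 3206 became 0, 170 and 549 without the filter. Quantile normalization moved the median of all genes by 0.107 from pre-iPSCs to iPSCs and by 0.175 over the whole way. For iPSCs against MEFs, H3K4me3 called 3 listed starts without composition normalization, 0 at 500 bp and 0 with DESeq2, and H3K27me3 called 0, 0 and 0. Without that normalization H3K4me3 called 3247 of 17644 starts in all, beside 2450 with it. The median log2 change of all starts was then -0.37, so the 3 listed calls need not be rises, apart from that of Dnmt3l. Its log2 change was at least 1.22 in all 13 alternatives. At 500 bp, 2 and 3 of 8 listed starts were higher in H3K9me3 level from MEFs to pre-iPSCs and from pre-iPSCs to iPSCs. These windows held 0 to 12 reads in single libraries, no test was made and the share over all starts was not counted. The sign of the log2 change turned, with no call after the turn, for Dnmt3l in pre-iPSCs against MEFs (-0.036 with quantile normalization, -0.057 to 0.13 when 1 library was left out) and for Tdg there (-0.071, and -1.46 to 1.46). It also turned in iPSCs against pre-iPSCs for Dnmt1 (0.055 with quantile normalization, -0.50 to 0.44 with 1 library left out), Tet2 (0.018, and -0.74 to 0.36) and Tdg (-1.68 to 0.56 with 1 library left out), and for Tdg in iPSCs against MEFs (-2.02 to 0.90, positive without replicate 1 of MEFs or of iPSCs). The share of Tet2 in MEFs was 21.3% with quantile normalization. The cause of these moves was not tested.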
